A study of Mus musculus with 4 samples.

Results

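The genes that encode histone lysine methylases and demethylases were examined in a map of acetylation of histone H3 at lysine 27 (H3K27ac) from mouse hippocampus. They were taken by symbol from the GENCODE M21 annotation: the autosomal protein-coding genes of the Kmt, Kdm, Setd, Setdb, Ezh, Ehmt, Suv39h and Nsd families together with Dot1l and Ash1l. The rule gave 43 of 20722 autosomal protein-coding genes, 28 of them methylases and 15 demethylases by name. A further 4 genes with such symbols lie on X or Y (Suv39h1, Kdm6a, Kdm5c and Kdm5d) and are not members. Class follows the symbol, so the methylases include SET-domain proteins with other or uncertain substrates, such as Setd3, Setd5 and Kmt2e, and the demethylases include Kdm8.

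The tissue, labelled layer of hippocampus, came from male B6CASTF1/J mice aged 2 months, which are F1 hybrids of C57BL/6 and CAST. The 4 ChIP-seq samples formed 1 group with no treated or mutant arm. They came from pool C and pool D, each made from 7 biosamples and run as 2 technical replicates, which makes pools the replicates here. The deposited data were 4 peak lists on GRCm38 (mm10): 1 of 88930 peaks replicated between the pools, 1 of 102643 peaks from the pools joined, 1 of 94836 peaks from pool C and 1 of 63623 from pool D. Read totals per sample were not among the files used, so sequencing depth is unknown, and a promoter without a peak is one where none was detected at this depth. Of 5 marker genes each, excitatory neurons, dentate granule cells, astrocytes, oligodendrocytes and endothelial cells had a promoter peak at 5. Microglia had a peak at 3, and interneurons, choroid plexus and hepatocytes at 2, against 62.1% of all autosomal coding genes. Of the liver genes, Fga and Apoa1 had a peak, and Alb, Ahsg and Serpina1a had none. In bulk tissue, a mark in few cells and a weak mark in many cells cannot be told apart.

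Methylases add methyl groups to lysines of histone H3 and H4, and demethylases take them off. The meaning of the mark depends on the residue: methylated H3K4 lies at promoters and enhancers, H3K36 and H3K79 methylation follow transcribed gene bodies, and methylated H3K9, H3K27 and H4K20 are linked to silent or compact chromatin. Mutations in many of these enzymes cause neurodevelopmental disorders in humans, and several act in memory formation in mice. H3K27ac marks active promoters and enhancers and is laid down on the same lysine that Polycomb enzymes methylate.

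The promoter sequences below show the range that the values span, from CpG-dense to CpG-poor, and lie just upstream of transcription start sites (TSSs), outside annotated UTRs. They were read from GRCm38 on the strand of the gene, with CG dinucleotides in capitals. The strongest methylase promoter, Kmt5b (chr19:3767822-3768021, plus strand), held 20 CG in 200 bases, and that of Kdm4a (chr4:118180044-118180243, minus strand), the strongest demethylase promoter after Kdm3b, held 10.
Kmt5b: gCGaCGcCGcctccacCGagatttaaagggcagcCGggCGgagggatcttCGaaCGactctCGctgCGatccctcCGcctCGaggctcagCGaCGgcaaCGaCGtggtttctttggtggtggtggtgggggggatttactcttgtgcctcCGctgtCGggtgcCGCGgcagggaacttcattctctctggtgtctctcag
Kdm4a: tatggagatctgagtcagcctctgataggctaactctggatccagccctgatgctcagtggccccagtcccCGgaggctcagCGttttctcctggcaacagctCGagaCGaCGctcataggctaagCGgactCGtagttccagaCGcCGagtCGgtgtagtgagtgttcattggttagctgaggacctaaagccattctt
Setdb1 (chr3:95357203-95357402, minus strand), the member with the lowest signal, held 12 CG in 200 bases. Kdm6b (chr11:69413676-69413875, minus strand), the member with the widest peak, held 1.
Setdb1: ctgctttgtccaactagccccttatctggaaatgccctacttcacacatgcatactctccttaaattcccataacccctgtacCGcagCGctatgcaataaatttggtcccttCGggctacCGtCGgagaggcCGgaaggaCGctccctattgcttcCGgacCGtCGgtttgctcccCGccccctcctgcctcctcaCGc
Kdm6b: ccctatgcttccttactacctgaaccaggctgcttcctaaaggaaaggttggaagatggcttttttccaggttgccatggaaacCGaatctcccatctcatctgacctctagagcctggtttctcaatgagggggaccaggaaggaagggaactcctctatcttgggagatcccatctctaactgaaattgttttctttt
The paralogues Ezh1 (chr11:101226464-101226663, minus strand) and Ezh2 (chr6:47595059-47595183, minus strand, 125 bases) differed in signal and held 13 and 11 CG. The Ezh2 stretch also lies inside its gene, whose main TSS is 311 bp downstream of its most upstream coding TSS.
Ezh1: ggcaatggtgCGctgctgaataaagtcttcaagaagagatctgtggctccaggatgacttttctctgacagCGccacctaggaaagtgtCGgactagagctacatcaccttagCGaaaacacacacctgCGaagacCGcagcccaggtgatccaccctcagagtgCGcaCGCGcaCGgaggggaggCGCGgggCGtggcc
Ezh2: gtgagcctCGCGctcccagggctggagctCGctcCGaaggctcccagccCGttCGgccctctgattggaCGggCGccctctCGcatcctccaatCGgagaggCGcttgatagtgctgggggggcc
Nsd2 had no peak at its main TSS. Its most upstream coding TSS had a peak on each side, and the 200 bases before it (chr5:33820525-33820724, plus strand) had a GC content of 80.5% and 39 CG.
Nsd2 upstream: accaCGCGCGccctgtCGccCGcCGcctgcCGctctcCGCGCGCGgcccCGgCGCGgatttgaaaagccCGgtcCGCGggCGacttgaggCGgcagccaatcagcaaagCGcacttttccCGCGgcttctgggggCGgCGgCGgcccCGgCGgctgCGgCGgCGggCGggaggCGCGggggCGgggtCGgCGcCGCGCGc

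Every member carried the mark at a promoter. A promoter peak was defined as a peak of the replicated list within 1 kb of the TSS of a protein-coding transcript, and all 28 methylases and all 15 demethylases had one. Among all autosomal coding genes the share was 62.1% (12874 of 20722). In pool C alone all 43 members had a promoter peak, against 62.7% of all genes. In the list from the pools joined all 43 had one as well, against 63% of all genes. In pool D alone 42 had one, against 58.4% of all genes. The gene without a peak in pool D was Setdb1, and 4.38% of all genes had a promoter peak in pool C and none in pool D. The members differ from the other genes in features that go with the mark. By an observed-over-expected CpG ratio of at least 0.6 in the 300 bases around the main TSS, 38 of 43 members were CpG-rich (88.4%), against 48.0% of all autosomal coding genes. Of the 9952 CpG-rich genes in all, 91% had a promoter peak. The members had a median of 3 coding TSSs and a median length of 50883 bp, against 2 and 17596 bp for all genes. The part of these features in the result was not tested.

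Signal, the authors' own value per peak, was taken from the strongest promoter peak of each gene and used to rank genes within a list. The median over the members was 18.4, against 13.9 over the 12874 autosomal genes with a promoter peak. At or above percentile 50 of those genes lay 33 members (76.7%; background 49.9%), and at or above percentile 90 lay 14 (32.6%; background 9.91%). The members spanned nearly the whole scale, from Kmt5b at percentile 99.96 to Setdb1 at percentile 0.699.

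**Figure D1:**
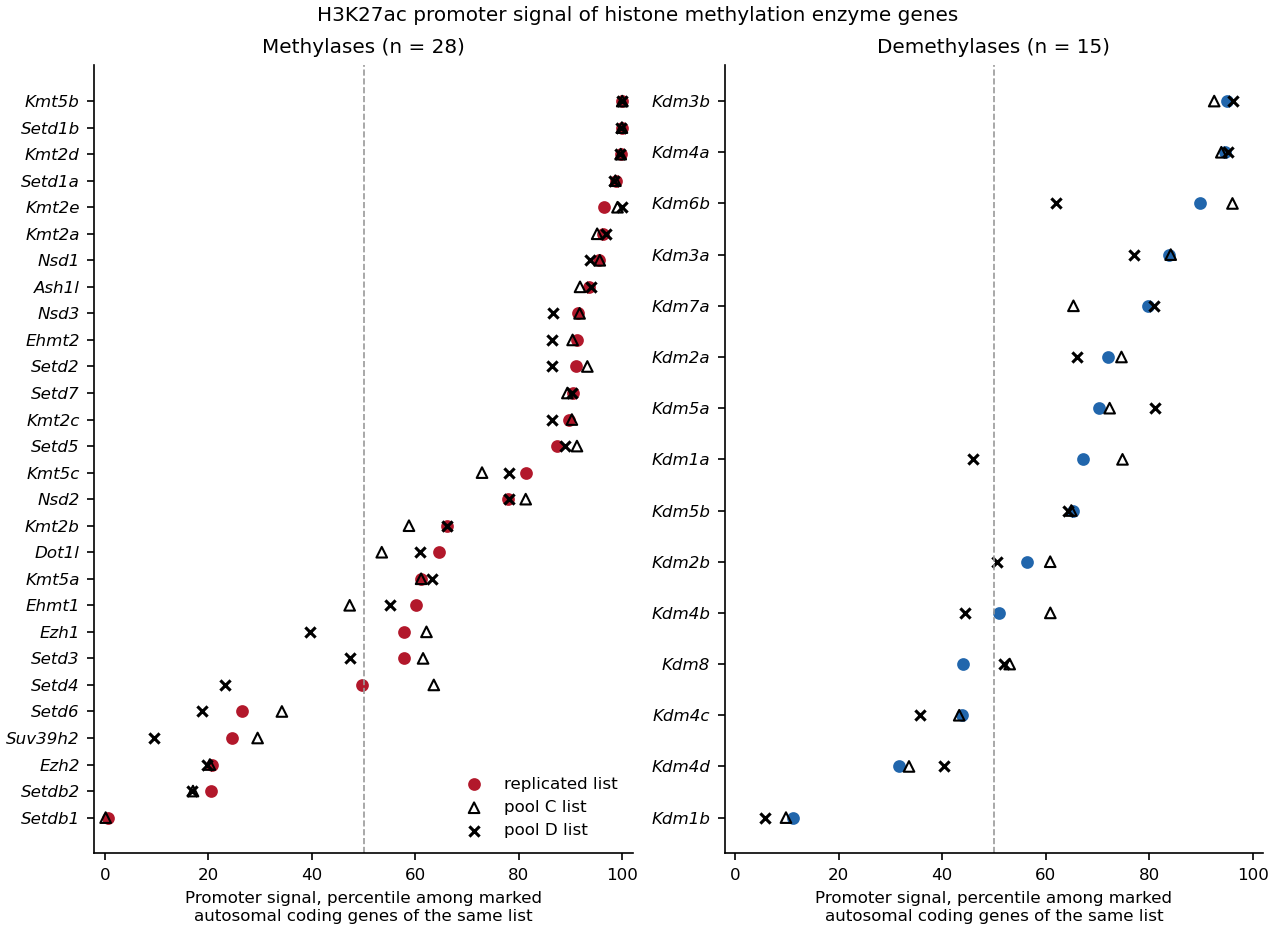
Percentile of the promoter signal of each gene among autosomal coding genes with a promoter peak in the same list (x axis), with methylases on the left and demethylases on the right. Filled circles are the replicated list, triangles the pool C list and crosses the pool D list, and the dashed line is percentile 50. Setdb1 has no cross because pool D had no promoter peak there, and Setd4 and Kdm6b have the widest gaps between triangle and cross.

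Methylase promoters ranked above demethylase promoters at the median, with much overlap. The median signal was 22.1 for methylases (range 2.79 to 48.8, n = 28 genes) and 17.4 for demethylases (range 5.75 to 28.3, n = 15 genes), which are percentiles 84.3 and 67.2. In pool C the medians were 25.7 for methylases and 19.5 for demethylases, and in pool D they were 16.7 and 11.9. The gap in median percentile, methylases minus demethylases, was 17.1 points in the replicated list, 20.0 in pool C and 24.3 in pool D. The class medians themselves moved less between the pools: 85.3 in pool C and 86.3 in pool D for methylases, 65.4 and 62.1 for demethylases. The classes were close in the share of genes at or above percentile 50, with 22 of 28 methylases (78.6%) and 11 of 15 demethylases (73.3%). At or above percentile 90 the counts were 12 of 28 and 2 of 15. Above the strongest demethylase, Kdm3b, lay 7 methylases, and 3 demethylases lay above the methylase median. With genes as members of a list and 2 pools as replicates, no test of the class difference was made.

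Coverage followed the same order as signal and width did so less firmly. The strongest promoter peak had a median width of 2416 bp in methylases and 2147 bp in demethylases, against 1712 bp over all autosomal genes with such a peak. In pool C the widths were 2479 bp in methylases and 2042 bp in demethylases, and in pool D 1897 and 1378 bp. Without the 7 members whose peak also lies at the TSS of another coding gene, the order of the widths turned, with 2416 bp in methylases and 2435 bp in demethylases. The covered length, counted in bases under peaks up to 10 kb to either side of the main TSS, had a median of 3647 bp in methylases and 2147 bp in demethylases, against 1577 bp over all 20722 genes. It was 3581 bp in methylases and 2121 bp in demethylases by pool C, and 2807 and 1797 bp by pool D. All peaks in the window count, including any that belong to another gene.

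**Figure D2:**
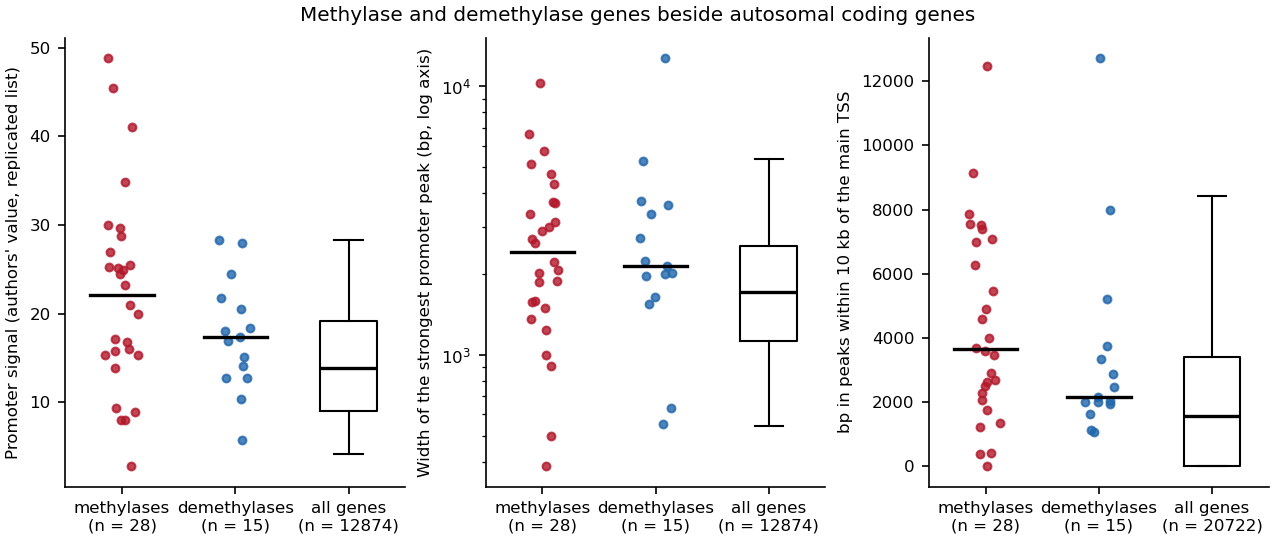
Promoter signal, width of the strongest promoter peak (log axis) and covered length around the main TSS in methylases, demethylases and all autosomal coding genes, from the replicated list. Points are genes and bars their medians; in the box the line is the median, the box spans the quartiles and the whiskers span percentiles 5 to 95. The methylase medians of 22.1, 2416 bp and 3647 bp stand above the demethylase medians of 17.4, 2147 bp and 2147 bp, and the points overlap.

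The H3K4 methylases had the highest ranks of the methylase groups with more than 3 genes. These are the catalytic subunits of the COMPASS and MLL complexes, which methylate H3K4 at promoters and enhancers, and Setd7, which adds a single methyl group. All 7 lay at or above percentile 50, with a median signal of 29.6 in the replicated list, 32.2 in pool C and 22.6 in pool D. Setd1b, whose complex makes promoter H3K4 trimethylation, had a signal of 45.5, with 49.4 in pool C and 30.9 in pool D. Its peak (chr5:123133638-123143962) was 10325 bp wide, reached 8555 bp upstream of the main TSS and 1769 bp downstream, and also lay at the TSS of Rhof, which encodes a small GTPase. Its paralogue Setd1a had 34.8, with 38.1 in pool C and 25.5 in pool D.

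The MLL genes followed the same pattern. Kmt2d, a monomethylase of enhancers, had 41.1, with 44.1 in pool C and 30.4 in pool D, and its partner in function Kmt2c had 24.5, with 28.1 in pool C and 16.7 in pool D. Kmt2a, which maintains Hox gene expression, had 29.6, with 32.2 in pool C and 22.6 in pool D. The lowest of the group was Kmt2b, a promoter H3K4 methylase, at 17.1, with 17.9 in pool C and 12.6 in pool D. Setd7 had 24.9, with 27.6 in pool C and 18.02 in pool D. All 7 genes were thus marked in both pools. The lowest of them, Kmt2b, stood at percentile 66.2 in the replicated list, 58.8 in pool C and 66.1 in pool D.

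The H3K36 methylases formed a narrow group. Their median signal was 25.5 (n = 5 genes), and all 5 lay at or above percentile 50. Nsd1, which dimethylates H3K36 and whose human orthologue is mutated in Sotos syndrome, was the highest at 28.8, with 32.6 in pool C and 19.9 in pool D. Ash1l, a Trithorax protein, had 26.9, with 29.1 in pool C and 20.1 in pool D, and its peak also lay at the TSS of Dap3, a mitochondrial ribosomal protein gene. Setd2, the enzyme for H3K36 trimethylation, had 25.2, with 30.0 in pool C and 16.7 in pool D. The lowest was Nsd2 at 19.9, with 23.8 in pool C and 14.7 in pool D.

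Among the H4K20 methylases the spread was wide. Kmt5b, which makes the higher methylated forms of H4K20, had the highest signal of all members at 48.8, with 51.7 in pool C and 36.1 in pool D, in a peak of 3692 bp (chr19:3766993-3770684). In pool D it was second to Kmt2e. Its paralogue Kmt5c had 20.9, with 21.4 in pool C and 14.7 in pool D. Kmt5a, the monomethylase of the cell cycle, had 16.0, with 18.4 in pool C and 12.2 in pool D, at a coding TSS 5563 bp downstream of the main one. The peak on its main TSS had 10.4, with 12.1 in pool C and 7.34 in pool D. By the strongest peak, the order Kmt5b, Kmt5c, Kmt5a was the same in each pool list. Dot1l, the H3K79 methylase, had 16.8, with 16.8 in pool C and 11.7 in pool D, in a peak of 5155 bp that reached 4508 bp into the gene.

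The H3K9 methylases had the lowest median of the groups with more than 3 genes, 8.91 (n = 5 genes), which is percentile 24.5. The group was split. Ehmt2 (G9a), which dimethylates H3K9 in euchromatin, stood at 25.3, with 28.2 in pool C and 16.7 in pool D. Its partner Ehmt1 (GLP) had 15.8, with 15.5 in pool C and 11.0 in pool D. The enzymes of H3K9 trimethylation were lower. Suv39h2 had 8.91, with 11.5 in pool C and 4.90 in pool D. Setdb2 had 8.01, with 8.26 in pool C and 6.08 in pool D, at a peak shared with Cab39l. Setdb1, which silences retroelements with the KRAB zinc finger system, had 2.79 in the replicated list and 2.84 in pool C, and no promoter peak in pool D. Its peak (chr3:95357149-95357532) was 384 bp wide, and the promoter was CpG-rich with a ratio of 0.685.

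The Polycomb methylases differed from each other. Ezh1, the catalytic subunit of PRC2 in non-dividing cells, had a signal of 15.4, with 18.7 in pool C and 9.02 in pool D. Ezh2, the subunit of dividing and progenitor cells, had 8.07, with 9.20 in pool C and 6.45 in pool D. Ezh1 was the higher of the pair in each list. Around the main TSS, Ezh1 had 7004 bp in peaks and Ezh2 2076 bp.

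The remaining SET proteins have other substrates or no settled activity on histones. Kmt2e, a chromatin reader of the MLL family, had 30.0 in the replicated list, with 39.4 in pool C and 36.4 in pool D. It ranked at percentile 96.4 in the replicated list, 99.04 in pool C and 99.96 in pool D. Setd5, whose human orthologue is mutated in intellectual disability, had 23.2, with 28.7 in pool C and 17.5 in pool D. Setd3, the histidine methylase of actin, had 15.4, with 18.5 in pool C and 9.94 in pool D, at a peak shared with the cyclin gene Ccnk. Setd4 had 13.8, with 19.1 in pool C and 6.92 in pool D, the widest gap in percentile between the pools, at 40.4 points. Setd6, which methylates the NF-kB subunit RelA, was the lowest at 9.32, with 12.6 in pool C and 6.30 in pool D.

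The H3K4 demethylases had a median of 17.1 (n = 4 genes). Kdm5a, a JmjC enzyme that removes H3K4 trimethylation, had 18.03, with 21.2 in pool C and 15.3 in pool D, at a peak shared with Ccdc77. Kdm5b, its paralogue, had 16.9, with 19.4 in pool C and 12.3 in pool D. Kdm1a (LSD1), the flavin-dependent enzyme of the CoREST complex, had 17.4, with 21.9 in pool C and 9.86 in pool D. These 3 genes lay close together and changed order between the pools. Kdm1b (LSD2), known for its role in the oocyte, was lowest at 5.75, with 6.09 in pool C and 4.29 in pool D, at a peak shared with Tpmt. The pool D value is from a peak on the other side of the TSS, and the pool D peak matching the replicated one had 3.96.

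The H3K9 demethylases were the largest demethylase group and had a median of 20.5 (n = 7 genes). Kdm3b led at 28.3, with 29.6 in pool C and 21.97 in pool D, and its paralogue Kdm3a had 21.8, with 25.01 in pool C and 14.5 in pool D. Both remove the lower methylated forms of H3K9. Within the Kdm4 family, which acts on trimethylated H3K9, the genes were graded. Kdm4a had 28.02, with 30.8 in pool C and 21.0 in pool D, and Kdm4b had 14.1, with 18.4 in pool C and 9.61 in pool D. Kdm4c had 12.7, with 14.6 in pool C and 8.49 in pool D. Kdm4d, known for expression in testis, had 10.4, with 12.4 in pool C and 9.07 in pool D, at a peak shared with Cwc15, a splicing factor gene. The pool C value is from a peak on the other side of the TSS, and the pool C peak matching the replicated one had 10.9. Kdm4a was the highest of the 4 in both pools, while Kdm4c and Kdm4d changed order. Kdm7a, which acts on H3K9 and H3K27, had 20.5, with 19.5 in pool C and 15.3 in pool D.

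The other demethylases ranged from 24.5 to 12.8. Kdm6b (JMJD3), an autosomal H3K27 demethylase, had 24.5, with 33.2 in pool C and 11.9 in pool D. It ranked at percentile 96.1 in pool C and 62.1 in pool D, where the strongest peak inside its replicated peak had 16.2 but lay over 1 kb from the TSS. Kdm2a and Kdm2b, which bind unmethylated CpG and act on H3K36, had 18.4 and 15.1. Kdm2a had 21.9 in pool C and 12.6 in pool D, and Kdm2b had 18.4 in pool C and 10.4 in pool D. Kdm8, a JmjC protein first described as an H3K36 demethylase, had 12.8, with 16.6 in pool C and 10.5 in pool D.

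The widest peaks were not always the strongest. A promoter peak of at least 5 kb was found at 6 of 43 members (14%), against 3.64% of all autosomal coding genes and 5.86% of those with a promoter peak. They were the methylases Setd1b, Kmt2e (6662 bp), Setd5 (5718 bp) and Dot1l, and the demethylases Kdm6b and Kdm2b (5286 bp). The Kdm6b peak (chr11:69407587-69420308) was the widest of all members at 12722 bp, and reached 6633 bp upstream and 6088 bp downstream of the main TSS. Peaks covered 49.2% of the gene. In pool C its strongest promoter peak was 6882 bp wide and in pool D 5334 bp, with the region split into 2 peaks in pool C and 5 in pool D. The covered length within 10 kb was 12631 bp in pool C and 11483 bp in pool D. By the pool lists alone, 5 members had a promoter peak of at least 5 kb in pool C and 3 in pool D, against 782 and 192 of all genes. The Kmt5b peak, by contrast, had the highest signal at a width of 3692 bp.

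**Figure D3:**
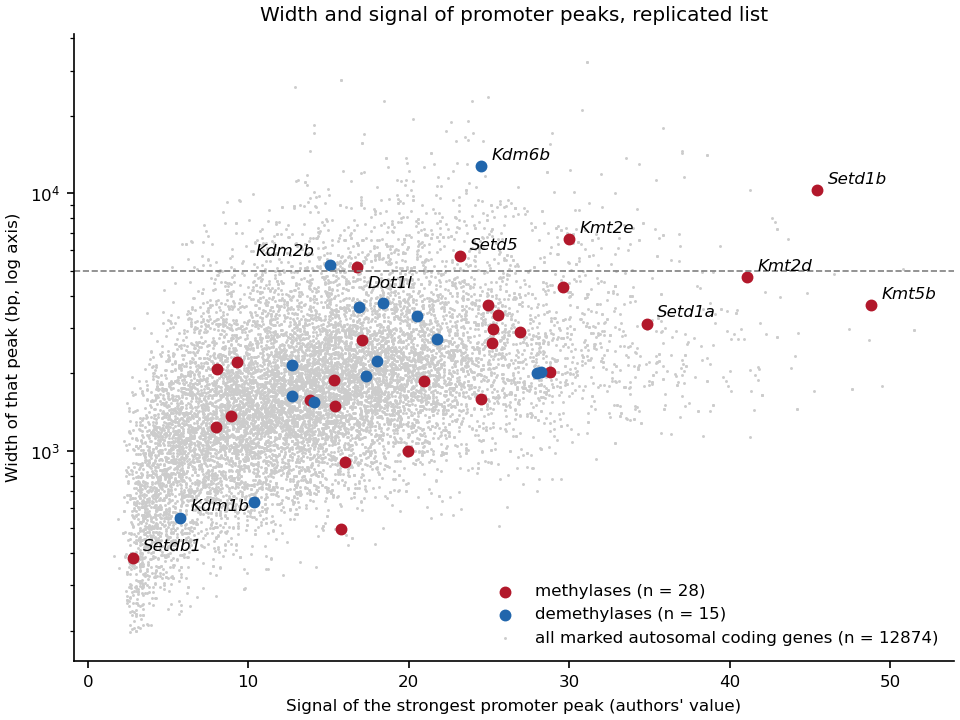
Width (log axis) against signal of the strongest promoter peak in the replicated list, for methylases, demethylases and all autosomal coding genes with a promoter peak. The dashed line marks 5 kb; Kdm6b, Setd1b, Kmt2e, Setd5, Kdm2b and Dot1l lie above it, and Setdb1 lies at the low end of both axes.

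The pools differed in the extent of the promoter peaks. Pool C peaks covered a median of 98.3% of each member's replicated peak and pool D peaks 83.5%, against 99.1% and 80.7% over all marked genes. In pool D the replicated peak was split into 2 or more peaks at 14 members (32.6%; background 23.9% of marked genes), and in pool C at 4 (9.30%; background 4.60%). The strongest promoter peak was wider in pool C at 38 members and wider in pool D at 4. The median ratio of widths, pool D over pool C, was 0.750 over members and 0.738 over all genes. Ranked by signal, the 42 members marked in both pools had a Spearman rho of 0.902 between the pools, a description over genes that share the libraries. The median size of the percentile difference between the pools was 4.61 points. It exceeded 20 points at 5 members, which are Setd4, Kdm6b, Kdm1a, Ezh1 and Suv39h2, and each of them was higher in pool C. The pool lists differ in length, so these differences are not read as changes. The percentile differences and the counts of wider peaks are not given for all genes, so they are not read as traits of the members.

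Most members had the mark on the main TSS, the start of the principal coding transcript. The main TSS lay inside a peak in 37 members (86.0%; background 81.1% of marked genes). It lay in a gap between 2 peaks in 4, Ehmt1, Setd3, Kdm4d and Kdm1b (background 7.05%). In pool D the gap appeared at 8 members, against 14.5% of marked genes, and in pool C at 3, against 6.3%. In 27 members more bases were covered downstream of the main TSS and in 15 more upstream, so that 64.3% of the 42 with a difference had more downstream, against 62.7% of all genes with one. The covered lengths had medians of 1553 bp downstream and 1130 bp upstream, against 750 and 532.5 bp over all genes. The peaks shared with another coding gene numbered 7 (16.3%; background 20.5% of marked genes), and their signal cannot be assigned to either gene.

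**Figure D4:**
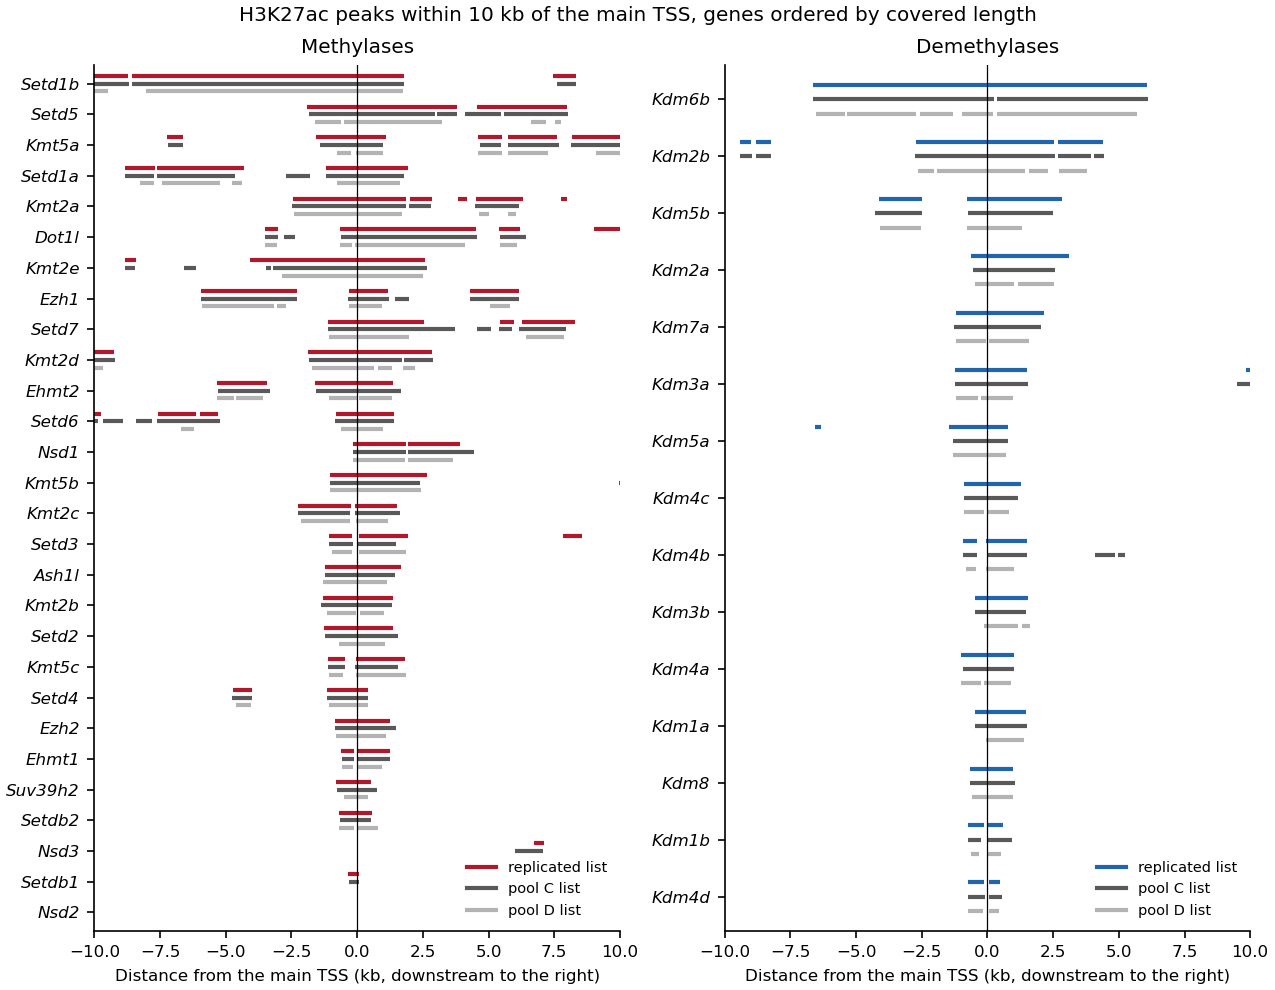
Peaks within 10 kb of the main TSS of each methylase (left) and demethylase (right), drawn to scale against distance from the main TSS in kb, with genes ordered from the top by covered length in the replicated list. In each gene the upper bar is the replicated list, the middle bar pool C and the lower bar pool D. Kdm6b and Setd1b are covered over more than 10 kb, Nsd2 has no peak in the window, and Setdb1 has none in pool D.

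The peaks of the Nsd family lay in part away from the main TSS. Nsd2 and Nsd3 were the only members without a peak within 1 kb of the main TSS (background 3.54% of marked genes), and 41 of 43 members had one, against 59.9% of all genes. The Nsd3 peak (chr8:25600945-25604300) lay at a coding TSS 37965 bp upstream of the main one, with a signal of 29.0 in pool C and 16.7 in pool D. The Nsd2 peak (chr5:33819365-33820358) lay at the most upstream coding TSS, 22387 bp upstream of the main one, and a second peak on the other side of that TSS had a signal of 16.3. The CpG ratio at the most upstream coding TSS was 1.19 for Nsd2, whose sequence there is printed above, and 0.738 for Nsd3, against 0.195 at the main TSS of Nsd3. Of the 40 members with 2 or more coding TSSs, 9 had a promoter peak away from the main TSS (22.5%; background 16%). The others were Nsd1, Kmt5a, Kmt2c, Dot1l, Kdm2a, Kdm2b and Kdm4b.

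Some of these internal promoters lay far inside the gene. In Kdm2a a peak of 3799 bp (chr19:4331747-4335545) lay at a coding TSS 64284 bp downstream of the main one, with a signal of 13.9, against 18.4 at the main promoter. A short form of the protein without the demethylase domain is known from an internal promoter of this gene. The peak had 15.1 in pool C and 11.7 in pool D, so it was present in both. In Kmt2c a peak of 5765 bp (chr5:25294774-25300538) lay 198670 bp downstream of the main TSS near the end of the gene, with a signal of 7.91, and 10.9 in pool C and 4.95 in pool D. The Kdm2b peaks inside the gene were weaker, at 5.55, 5.09 and 4.10, and the second had no overlapping peak in pool D. Dot1l had internal promoter peaks of 9.95 and 9.80, at coding TSSs 36248 and 22350 bp downstream of the main one. In all, 126 of the 159 coding TSSs of the members had a peak within 1 kb (79.2%), against 61.4% for all autosomal coding genes. At least 1 coding TSS without a peak was found in 21 members. That count is not given for all genes, so it is not read as a trait of the members.

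Peaks inside the gene but over 1 kb from any coding TSS were found in 26 of 43 members (60.5%; background 37.8% of all genes), in 19 of 28 methylases and 7 of 15 demethylases. The members are longer than most genes, as given above, and the part of length was not tested. In 3 of 43 members such a peak was stronger than the promoter peak. The share over all genes is not given here, so this count is not read as a trait of the members. In Kdm4b it spanned 11086 bp (chr17:56364904-56375989), from 38830 to 49915 bp downstream of the main TSS, with a signal of 15.8, against 14.1 at the promoter. Its signal by pool C was 22.6 and by pool D 8.05, where it was split into 3 peaks covering 9420 bp. A noncoding transcript of the gene starts within it. In Kmt5a such a peak had 18.5 over 4329 bp, against 16.0 at its strongest promoter peak and 10.4 at the main TSS, and peaks covered 71.8% of the gene. The third gene was Setdb1, with 3.56 inside the gene in a peak that neither pool list overlapped. Kmt2a had the most such peaks at 12, then Kdm4b with 11 and Kmt2e with 9.

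CpG content was high across the group. The observed-over-expected CpG ratio of the main promoter had a median of 0.905 in methylases and 0.908 in demethylases, against 0.572 over all autosomal genes and 0.756 over those with a promoter peak. The 5 members under 0.6 were Nsd2, Nsd3, Kdm6b (0.211), Nsd1 (0.538) and Setd1b (0.587), and Nsd2 and Nsd3 had no peak there. The peaks on the other 3 start sites had signals of 24.5, 28.8 and 45.5. These values belong to whole peaks. Their summits lay at -4777, 1301 and -2801 bp from the main TSS, in that order, where negative is upstream. In pool D the peak over the Kdm6b main TSS had a signal of 4.82. The members under percentile 25, which are Setdb1, Kdm1b, Setdb2, Ezh2 and Suv39h2, were all CpG-rich. The Kdm6b start site had 4 CpG in those 300 bases, and 1 CG in the 200 bases printed above.

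**Figure D5:**
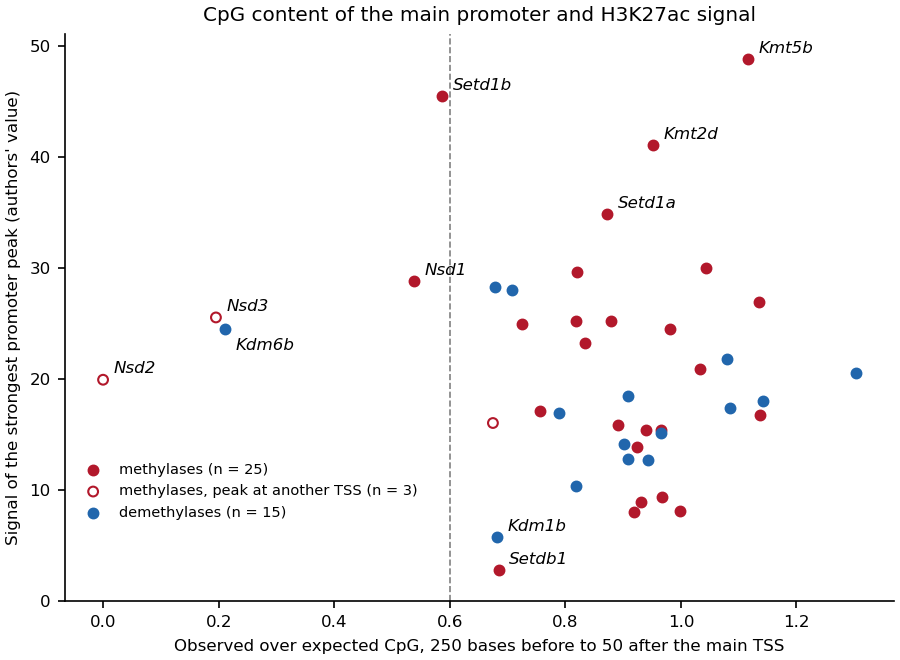
Signal of the strongest promoter peak against the observed-over-expected CpG ratio of the 300 bases around the main TSS, for methylases and demethylases. The dashed line is the ratio of 0.6. Open circles are the 3 genes whose strongest peak lies at another coding TSS than the one the ratio describes (Nsd2, Nsd3 and Kmt5a). Of the filled points, Kdm6b, Nsd1 and Setd1b lie left of the line, and the weakest genes, Setdb1 and Kdm1b, lie to its right. Signal belongs to the whole peak, and the summits of the Kdm6b, Nsd1 and Setd1b peaks lay over 1 kb from the main TSS.

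Short motifs were searched in the same 300 bases on both strands. GGGCGGGG, the SP/KLF motif, was found in 17 members (39.5%), against 23.7% of all autosomal coding genes and 33.0% of those with a promoter peak. It was found in 9 of 28 methylases and 8 of 15 demethylases. AAGATGGCG, the YY1 motif, was found in Kmt2e, Kmt2b and Dot1l (6.98%), against 1.87% of all genes and 2.91% of those with a promoter peak. CCAAT, the NFY motif, was found in 14 (32.6%), against 38.0% and 37.0%. TATAAA was found in 2 (4.65%), against 12.7% and 7.01%. CACGTG, the USF E-box, was found in 4 (9.30%), against 7.79% and 9.59%. TGACGTCA, the CRE motif, was found in 1 (2.33%), against 2.48% and 3.39%, and CCGGAAGT, the ETS motif, in 1 (2.33%), against 5.12% and 7.67%. The NRF1 motif was found in 0, against 1.25% and 1.93%. None of these motifs contains another. These are matches of letters, and binding of a factor was not measured.

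The autosomal partners of these enzymes on the lists were all marked, against 62.1% of all autosomal coding genes. All 11 partner genes of the COMPASS and MLL complexes had a promoter peak, led by Psip1 (34.9), Paxip1 (34.2) and Rbbp5 (27.5). All 9 PRC2 partners had one, led by Eed (32.0), Rbbp4 (27.3) and Aebp2 (24.2), and Phf19 (4.28) had none in pool D. Eed, a core subunit that binds the methylated tail, had 36.7 in pool C and 22.8 in pool D, and so stood above both catalytic subunits, Ezh1 and Ezh2, in each list. All 8 partners of the H3K9 methylases had one, led by the heterochromatin protein gene Cbx3 (28.4), Trim28 (21.8) and Atf7ip (21.1). Trim28 and Atf7ip encode the corepressor and the cofactor of Setdb1, whose own promoter had 2.79. All 9 autosomal LSD1 and CoREST partners had one, led by Hdac2 (37.2), Rcor3 (24.2) and Zmym2 (23.0). Of 22 related enzymes outside the symbol rule, 21 had one, led by the JmjC gene Jmjd1c (35.7), the arginine methylase gene Prmt6 (22.3) and Jmjd6 (20.8). Smyd1, a methylase of heart and skeletal muscle, had none.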

How the data were processed

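H3K27ac ChIP-seq peaks were deposited by the authors as 4 narrowPeak lists on mm10. Each peak's signal was set by the authors on a scale not stated in the sources. Genes were therefore compared by it only within a list. Signal values of different lists, given side by side, may differ in scale. The deposited −log10 q of each peak served as a filter. The aligner and peak caller are not stated in the sources used here. Fragments of 200 to 600 bp were selected, per the labels. The 4 samples form 1 group, and the descriptive text of the samples ties the lists to pools C and D. With no read totals, no interval on depth can be given.

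Genes came from GENCODE M21, on the GRCm38 build. No peak ended past any of the 19 autosomes of the GRCm38 sequence, which does not by itself establish the build. Strain differences from C57BL/6 were not analysed here. TSSs were those of protein-coding transcripts, as the membership rule words it, although the written plan put every annotated transcript first; both were run. The main TSS was that of the coding transcript with the best APPRIS tag, then the best support level, then the greatest length. Covered length counts bp under peaks up to 10 kb away from it. Members and lists were chosen with earlier results of these data known, so values are described beside the same over all autosomal coding genes, with no test. Named with values were, by rule, the highest and lowest member of each residue group and members with peaks of 5 kb or more. The rule also named members with calls that differ between pools or with shared peaks. Of each partner list it named the 3 highest and any unmarked genes. The remaining genes, and all sequences but those of Kmt5b and Setdb1, were chosen after values were seen. Among these, Kdm4a stood in for Kdm3b, which the rule named. Sequences of Kdm3b, the strongest demethylase, and of the main Nsd2 promoter are not reported here. The peak scoring was tested on simulated data. The alternatives kept peaks at a −log10 q of at least 5, peaks above the median signal, each other list, each pool alone, TSS windows of 500 bp and 2.5 kb, TSSs of every transcript, members with shared peaks left out, and covered windows of 25 and 2 kb; a window around the most upstream coding TSS was added after the values of Nsd2 and Nsd3 were seen. Python 3.11.15, numpy 2.4.6, pandas 2.3.3 and matplotlib 3.10.9 were used.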

Additional observations from a re-analysis of the deposited data

How the results depend on the processing

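Over 12 alternatives, 79 of 88 values stayed within the spread between pools, or for counts within 1.5 times, and 9 moved. That spread was computed from the values of the 2 pool lists, so it is no separate yardstick for either pool alone. For median signal it was wider than the gap between the classes, so staying within it says nothing about that gap. A limit of 1.5 times is wide for counts of marked members. The 79 values are therefore a tally and not a test of stability. With a pool left out, the counts of marked members ranged from 42 to 43, of methylases from 27 to 28, and of demethylases stayed at 15. Methylase and demethylase median signals ranged from 16.7 to 25.7 and from 11.9 to 19.5. Whether the lists share a signal scale is unknown, so shifts in signal between lists are not read as changes. Widths ranged from 1897 to 2479 bp and from 1378 to 2042 bp, and covered lengths from 2807 to 3581 bp and from 1797 to 2121 bp. Peaks of 5 kb or more ranged from 3 to 5 members. The lower end of each of these ranges is pool D alone. With windows of 25 kb the covered medians were 5353 bp in methylases and 4078 bp in demethylases. With 2 kb they were 2655 and 2147 bp, since a window's size sets what it can hold. The methylase median was the higher in 9 of 9 settings for signal (ratio 1.23 to 1.40) and in 8 of 8 for covered length (1.24 to 1.88). The signal medians equalled the main ones with the −log10 q filter, the joined list, both other TSS windows and every transcript. Those settings are not separate repeats of the result, and the 79 values that stayed include them. For width the methylase median was higher in 8 of 9, with a ratio of 0.992 when members with shared peaks were left out. Setdb1 was the only member lost among peaks above the median signal, and no member was lost at a −log10 q of 5 or more. With the TSSs of every transcript, the strongest peak of Kdm4b became the one of 11086 bp and that of Kmt5a the one of 4329 bp. No paired analysis was possible because the 4 samples form 1 group. Unknown depth and 2 pools limit precision throughout.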
